A study of Mus musculus with 6 samples.

Results

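Within the skin of the 2 mice of the AG group, CD8 T cells that carry the receptor beta segment of P14 cells were compared with the other CD8 T cells of the same mouse. The CD8 T cells were taken as cells with a UMI (a unique molecular identifier, 1 counted RNA molecule) of Cd3e, Cd3d or Cd3g, a UMI of Cd8a or Cd8b1, no UMI of Cd4, and fewer than 20 UMIs of Krt5 and Krt14 together per 10000. Cells with a Trbv13-3 UMI were called P14-like, and cells with no Trbv13-3 UMI and a UMI of another Trbv segment were called host. This gave 489 P14-like and 388 host cells in AG 1, and 487 and 148 in AG 2. Together they are 1512 of the 8167 AG cells and of the 21178 cells of all 6 libraries. A further 155 and 220 cells passed the CD8 rule but had no beta segment UMI and were on neither side. The members were chosen by the measured UMIs of Cd3e, Cd3d, Cd3g, Cd8a, Cd8b1, Cd4, Krt5, Krt14 and the Trbv columns, which were not tested.

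The labels put 2 mice in each of the groups NO_AG, AG and AG_CPI, which by the design text are mice without the antigen, mice with it, and mice with it that also received CPI. All 6 mice were of the NINJA strain, were 6 to 12 weeks old, and gave skin from the area treated with 4-OH-Tam, the controls included. RNA was captured per cell with the 5' chemistry of 10x Genomics. The labels do not spell out CPI, its dose, the sex of the mice or how the P14 cells came to be in them. The mice had been checked, per the labels, for visible skin disease and for P14 cells in the skin before sequencing. Each group holds only 2 mice, both sides of a mouse come from 1 library, and a cell's side can rest on 1 UMI.

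NINJA mice carry a neoantigen that stays silent until it is switched on, and P14 CD8 T cells bear a transgenic receptor for a peptide of the lymphocytic choriomeningitis virus glycoprotein. CD8 T cells that meet their antigen repeatedly raise inhibitory receptors such as PD-1 and LAG-3, while cells that rest or persist as memory keep TCF-1 and the IL-7 receptor. Skin also holds resident CD8 T cells, which are known for the integrin CD103, encoded by Itgae, and for CD69.

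Total UMIs per library were 16932775 in AG 1 and 17092885 in AG 2. P14-like cells were deeper than host cells, with medians of 3486 against 2491 UMIs in AG 1 and 3458 against 2263.5 in AG 2. Cells of the 2 sides were therefore paired 1 to 1 within a mouse on UMIs per cell, which left 286 pairs in AG 1, with medians of 2783 and 2797.5, and 148 pairs in AG 2, with 2263.5 on both sides. Levels below are means over these matched cells, unless other cells are named, in UMIs per 10000 UMIs of a cell, and counting intervals cover counting error only. The AG 1 and AG 2 members shared 3 cell barcodes. Between 728 and 749.5 genes were detected per cell (medians of the 4 profiles, each cell thinned to 1500 UMIs). Mitochondrial genes made up 3.1% of P14-like and 3.62% of host UMIs in AG 1, and 3.48% and 3.57% in AG 2. Ribosomal protein genes made up 19.5% and 23.4% in AG 1, and 20.9% and 22.8% in AG 2.

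The beta segment sets the sides, so its sequence is shown first. Trbv13-3 lies at chr6:41130147-41130585 on the plus strand (GRCm38), and its neighbour Trbv13-2 at chr6:41121396-41121832. Their annotated transcripts, both 340 bases long, are 90.6% identical, and Trbv13-1 is 84.4% identical to Trbv13-3 over 340 aligned columns. The first 120 bases are printed from the start codon, with the 10 bases at which Trbv13-3 and Trbv13-2 differ in capitals.
Trbv13-3: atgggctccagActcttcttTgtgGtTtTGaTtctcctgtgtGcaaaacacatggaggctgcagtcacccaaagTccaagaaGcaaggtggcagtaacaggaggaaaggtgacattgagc
Trbv13-2: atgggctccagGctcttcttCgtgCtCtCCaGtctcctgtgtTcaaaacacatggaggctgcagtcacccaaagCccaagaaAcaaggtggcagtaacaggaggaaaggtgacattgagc
How the counting divided reads between these relatives is not given in the sources used here. Trbv13-2 was the other segment in 13 P14-like cells of AG 1 and in 13 of AG 2, and any other Trbv segment in 55 of 489 and 53 of 487 P14-like cells.

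The label P14-like was checked with the alpha segment, since P14 cells pair Trbv13-3 with a segment of the Trav14 family. Among cells with any Trav UMI, 438 of 445 P14-like cells of AG 1 had a Trav14 UMI (98.4%, Wilson 95% interval 96.8% to 99.2%) and 390 of 407 of AG 2 (95.8%, 93.4% to 97.4%). In host cells the numbers were 50 of 233 (21.5%, 16.7% to 27.2%) and 15 of 71 (21.1%, 13.2% to 32.0%). In host cells of NO_AG they were 6 of 41 (14.6%) and 24 of 187 (12.8%). The 2 sides of AG did not overlap, and 1 column accounted for nearly all of it: Trav14-1, at chr14:53554022-53554558, was found in 437 P14-like cells of AG 1 and 387 of AG 2. In host cells Trav14-1 averaged 0.129 and 0.499 in AG, and 0 and 0.0689 in NO_AG. The part of P14 cells in the AG host side was not tested. The annotation holds close relatives of this segment, Trav14d-1 being 91.6% identical, so reads of the family may be divided among columns. In the NO_AG mice, which give the background of the rule, 2 of 92 and 13 of 324 CD8 T cells with a beta UMI had Trbv13-3. Among these cells with Trbv13-3, no Trav14-1 UMI was found, and 3 had a UMI of another Trav14 column. In CD4 T cells with a beta UMI, Trbv13-3 was found in 4 of 28 (14.3%) and 2 of 47 (4.26%) in NO_AG, and 20 of 152 (13.2%) and 10 of 113 (8.85%) in AG. Keratin-high cells without Cd3, which should lack these segments, had a Trbv13-3 UMI in 2 of 942 cells of AG 1 and in 41 of 1348 of AG 2 (3.04%), at median depths of 6920 and 2336 UMIs.

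Cells near the limits of the rule are given as a description. P14-like cells with exactly 1 Trbv13-3 UMI numbered 99 in AG 1 and 169 in AG 2, and of those with a Trav UMI 82 of 82 and 113 of 122 had Trav14. Over all cells, unmatched, their mean Lag3 level was 10.1 and 5.25 UMIs per 10000, beside 9.39 and 5.15 in cells with 2 or more Trbv13-3 UMIs and 0.323 and 0.989 in host cells. Gzma was at 34.1 and 30.01 in cells with 1 such UMI and at 37.0 and 17.5 in cells with 2 or more, values given without a test. Cells with no beta segment UMI lay between the sides, with Lag3 at 3.14 and 3.95, Tcf7 at 0.678 and 0.522, and Trav14 in 50 of 82 and 74 of 95 cells with a Trav UMI. At the keratin limit, 11 and 27 cells lay within 10 UMIs per 10000 below it, and 2 and 13 within 10 above it.

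Host cells used many segments. In both AG mice 18 Trbv segments were seen, and the most frequent was Trbv13-2, in 14.7% of host cells of AG 1 and 20.9% of AG 2. Trbv26 was next in AG 1 with 13.1%, and Trbv13-1 and Trbv15 in AG 2, each with 14.9%. A UMI of more than 1 of these segments was found in 20.1% and 14.2% of host cells. Sex-linked transcripts did not separate the sides: a Xist UMI was found in 65.2% of P14-like and 70.1% of host cells in AG 1, and in 73.3% and 74.3% in AG 2. None of the 1512 cells had a Ddx3y UMI, which allows a share of up to 0.198%.

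The main question was which genes differ between cells that carry the P14 segment and their neighbours in the same antigen-bearing skin. P14-like cells held more RNA of 6 of 11 inhibitory receptors tested, among them Lag3, Tigit and Pdcd1, of 10 of 15 granule genes and of the chemokines Ccl3, Ccl4 and Ccl5, while host cells held more Tcf7, Il7r, Trat1, Itgae, Cd69 and Cxcr3. Of 6199 genes tested, 6.19% were called, 209 higher (3.37%) and 175 lower (2.82%) in P14-like cells (limma with the mouse as a block, Benjamini-Hochberg adjusted p under 0.05), and 965 had an unadjusted p under 0.05. The median fitted difference was 1.05 among the higher genes, -1.01 among the lower ones and 0.02 over all genes tested, on the scale of log2 of the scaled mean plus 0.1. For 194 of the 209 both P14-like profiles lay above both host profiles, and for 151 of the 175 both lay below. The calls, made on these same profiles, favour such a gap, and its share over all genes tested was not computed.

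**Figure D1:**
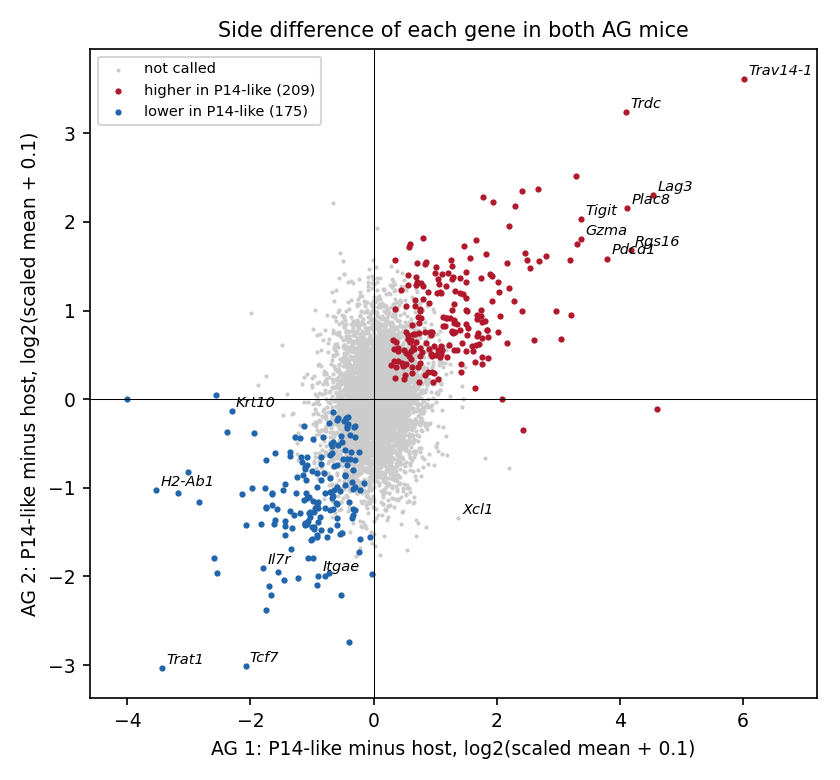
Each point is 1 of the 6199 genes tested, with the P14-like minus host difference in AG 1 on the x axis and in AG 2 on the y axis, on the scale of log2(scaled mean UMIs per 10000 + 0.1); red points are the 209 genes called higher and blue points the 175 called lower. Lag3, Trdc and Plac8 are high in both mice, Tcf7 and Trat1 low in both, and Xcl1 moves in opposite directions.

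With 2 mice and the block, the fit leaves 1 residual degree of freedom per gene and takes its spread from the trend across genes, so a call has to be read with the values of both mice. Over all genes tested, 59.0% had the same direction in both mice, and the differences of the 2 mice had a Pearson r of 0.39. The direction was the same in both mice for 206 of the 209 and 173 of the 175 genes, which the calls, made on the mean of the same 2 differences, favour. The exceptions were Nrgn, AA467197 and Ifitm1 among the higher genes and Hbb-bs and Krt1 among the lower ones. Nrgn stood at 3.07 in P14-like and 0.0352 in host cells of AG 1, but at 0.927 and 1.05 in AG 2. In a fit that AG shares with AG_CPI, and that estimates how much single genes vary, 162 of the 209 and 114 of the 175 were called again. With robust moderation of the AG fit, 199 and 169 were called again. Trav14-1, Lag3, Pdcd1, Gzma, Ccl3, Plac8, Rgs16, Tnfrsf9, H2-Ab1, H2-Aa and Cd74, whose differences have 1 direction but unequal size in the 2 mice, lost their call. Without the block 41 and 16 genes were called. Where a value without 1 of the AG mice is given below, the comparison rests on the other mouse, and its spread comes from the 2 AG_CPI mice and the trend across genes in the shared fit, so the lone mouse is assumed to vary as they do.

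Inhibitory receptors restrain T cells when they bind their ligands. Of 17 listed, 14 had a column, 11 were tested, 6 were higher and 1 was lower, and the median difference was 1.66. Lag3, which binds class II molecules, averaged 9.28 UMIs per 10000 in P14-like and 0.313 in host cells of AG 1, and 5.11 and 0.989 in AG 2. Both P14-like profiles were far above both host profiles, and the fitted difference was 3.43 (SE 0.17, limma adjusted p = 1.46e-82). The gap of Lag3 was wider in AG 1 than in AG 2, at 4.55 and 2.30, and its adjusted p was 4.65e-07 in the fit shared with AG_CPI, while with robust moderation the call was lost. Tigit, which competes for ligands of the nectin family, stood at 4.64 against 0.373 in AG 1 and 4.07 against 0.952 in AG 2. The sides again lay apart, by 2.70 (SE 0.18, adjusted p = 5.57e-46).

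Pdcd1 encodes PD-1, the receptor that the series title names. Its level was 3.25 in P14-like and 0.149 in host cells of AG 1, and 2.25 and 0.704 in AG 2, a difference of 2.69 (SE 0.21, limma adjusted p = 7.38e-34, and 1.14e-05 in the shared fit), lost with robust moderation. The host level was higher in AG 2 than in AG 1, and below both P14-like profiles. Havcr2, which encodes TIM-3, stood at 3.01 against 0.248 and at 2.77 against 0.894, and Ctla4 at 0.936 against 0.2 and at 1.11 against 0.3. They differed by 2.39 (SE 0.20) and 1.73 (SE 0.27), with no overlap between the sides. Entpd1, the ectoenzyme CD39, was the sixth receptor gene called higher, by 1.66 (SE 0.31, adjusted p = 5.03e-06). Cd160 went the other way: it stood at 1.15 against 2.64 and at 0.842 against 1.92, and was lower in P14-like cells by 1.08 (adjusted p = 7.96e-07).

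**Figure D2:**
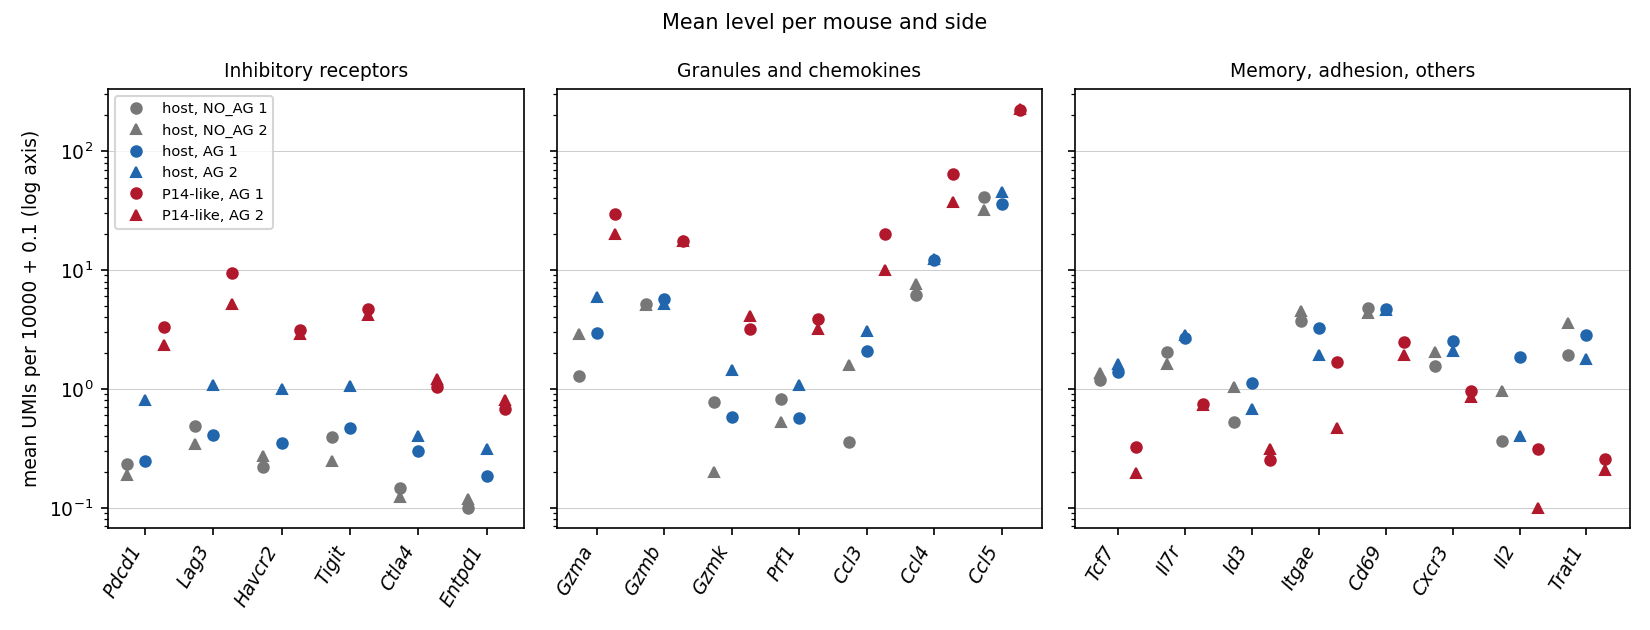
Mean UMIs per 10000 plus 0.1, on a log axis, for genes of 3 groups: red marks P14-like cells and blue host cells of the AG mice, grey marks host cells of the NO_AG mice, and circles and triangles stand for mouse 1 and mouse 2. Every inhibitory receptor, granule gene and chemokine shown has both red marks above both blue ones, and every gene of the right panel has both red marks below both blue ones.

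To give the receptors per cell, each matched cell was thinned to 1500 UMIs and the receptors Pdcd1, Lag3, Havcr2, Tigit and Ctla4 with a UMI were counted. In AG 1, 58.7% of the 286 P14-like cells had at least 2 of the 5 (Wilson 95% interval 53.0% to 64.3%) and 2.10% of the 286 host cells (0.965% to 4.50%). In AG 2 the shares were 47.3% (39.4% to 55.3%) and 12.8% (8.37% to 19.2%) of 148 cells each. Whether the receptors occur together more often than the shares of the single genes would give was not tested. The shares did not overlap between the sides, though 2 mice allow no exact paired p below 0.5. At least 3 of the 5 were found in 32.5% and 23% of P14-like cells, and in 0.699% and 4.73% of host cells. Without thinning, at least 2 were found in 79.4% and 66.2% of P14-like and in 4.90% and 22.3% of host cells. Keratin-high cells without Cd3, thinned alike, had at least 2 in 0 of 942 cells of AG 1, which allows a share of up to 0.318%, and in 8 of 1348 of AG 2 (0.593%). They had 1 or more in 0.531% and 9.20%, so the share in cells that should lack these receptors was higher in AG 2.

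**Figure D3:**
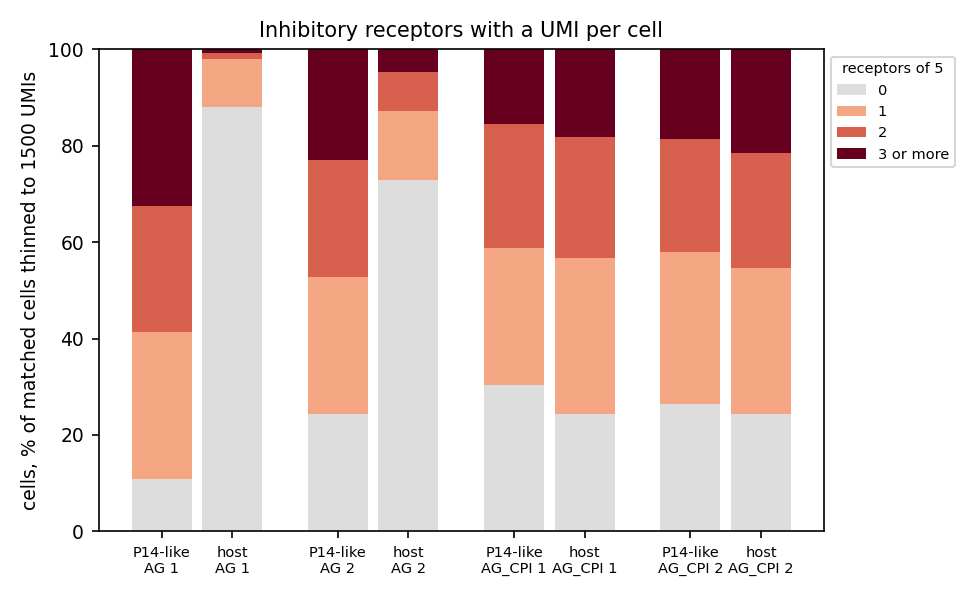
Share of matched cells, each thinned to 1500 UMIs, by the number of the 5 inhibitory receptor genes with a UMI, for both sides of each AG and AG_CPI mouse. In AG the P14-like bars hold 58.7% and 47.3% of cells with at least 2 receptors and the host bars 2.10% and 12.8%, while in AG_CPI both sides lie between 41.2% and 45.4%.

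Granule genes arm T cells to kill. Of 15 tested, 10 were higher in P14-like cells and none lower (limma, with 12 higher and 1 lower at an unadjusted p under 0.05), with a median of 0.83. Gzma, a trypsin-like granzyme, averaged 29.5 against 2.85 in AG 1 and 20 against 5.83 in AG 2. The sides lay apart by 2.59 (SE 0.12, limma adjusted p = 3.76e-93, and 1.13e-07 in the shared fit), with a wider gap in AG 1, and the call was lost with robust moderation. Gzmb, the granzyme that activates caspases, stood at 17.5 against 5.6 and at 17.3 against 5.09, with a difference of 1.73 (SE 0.12). Gzmk stood at 3.07 against 0.479 and at 4.01 against 1.33, and Prf1, the pore-forming perforin, at 3.74 against 0.467 and at 3.09 against 0.971. Both were higher on the P14-like side of each mouse, by 2.03 (SE 0.18) and 2.21 (SE 0.19). Nkg7, a granule membrane gene, differed less, by 0.83. Srgn, the proteoglycan that packs granules, was called at 0.64, but without AG 1 its difference was 0.25 and the call was lost.

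Of the killer-cell receptors, 6 were tested and all were called, 3 in each direction. Klrc1, the inhibitory NKG2A, stood at 7.47 against 1.11 and at 3.53 against 1.18, and its partner Klrd1, which encodes CD94, at 14.8 against 4.43 and at 12.9 against 6.56. Both were higher in both mice, by 2.12 (SE 0.16) and 1.38 (SE 0.13). Klrk1, the activating NKG2D, was higher by 1.10 (SE 0.17). Cd7, a surface protein of T and NK cells, stood at 2.94 against 12.2 and at 3.62 against 7.63, and was lower by 1.49 (SE 0.14). The other 2 lower genes, Fcer1g and Tyrobp, are signal adaptors that myeloid cells also express. Fcer1g differed by -1.51, but by only -0.46 when all cells entered unmatched, where its call was lost.

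Among cytokines and chemokines, 5 of 16 tested were higher and 5 lower, with a median of 0.12. Ccl5, which attracts T cells and monocytes, averaged 223 against 35.8 in AG 1 and 226 against 45.3 in AG 2. The P14-like levels were close in both mice, and the difference was 2.52 (SE 0.09, limma adjusted p = 8.95e-149). After thinning, a Ccl5 UMI was found in 37.5% of keratin-high cells without Cd3 in AG 2 and in 2.23% in AG 1, against 61.5% and 69.9% of host cells. The source of the Ccl5 UMIs in keratin-high cells, and their part in the AG 2 host level, were not tested. Ccl3 and Ccl4, chemokines of activated T cells, were higher by 2.53 (SE 0.13) and 2.05 (SE 0.11). Ifng, the effector cytokine of CD8 T cells, was at 8.92 against 4.89 and at 4.02 against 2.78. Its difference was 0.73 (adjusted p = 1.30e-05), and without AG 1 it was 0.59 and not called. Ccl1, a ligand of CCR8, was higher by 1.32, but by 0.49 and not called when cells with a keratin UMI or over 10% mitochondrial UMIs were left out.

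The cytokine genes on the host side were Il2, Tnf, Lta, Tnfsf14 and Spp1. Il2, the T cell growth factor, averaged 0.213 against 1.76 in AG 1, and in AG 2 it had no UMI in P14-like cells against a level of 0.301 in host cells. It was lower by 2.25 (SE 0.32, limma adjusted p = 1.72e-10). Tnf stood at 1.10 against 2.03 and at 0.272 against 0.700, lower by 0.93, and lost its call when either mouse was left out. Xcl1, a chemokine for cross-presenting dendritic cells, had no common direction. It stood at 8.06 against 3.14 in AG 1 and at 0.708 against 2.01 in AG 2, so the fitted difference of 0.02 describes neither mouse.

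The factors that set CD8 T cell fate split. Of 27 tested, 6 were higher and 3 lower, with a median of 0.40. Tox, a factor of exhausted T cells, stood at 0.844 against 0.226 and at 1.21 against 0.345, and was higher by 1.58 (SE 0.26, limma adjusted p = 1.13e-07). Id2, which favours effector cells, was higher by 0.62, and Irf8 by 1.31, though Irf8 was at 0.80 and not called without AG 1. Batf, Zeb2 and Ets1 were the other 3. Tcf7, which encodes TCF-1, averaged 0.223 against 1.29 in AG 1 and 0.0952 against 1.54 in AG 2. Both P14-like profiles lay far below both host profiles, by 2.55 (SE 0.27, adjusted p = 4.68e-19). Id3, which marks memory precursors, was lower by 1.60, and by 1.05 and not called without AG 1. Rora, a nuclear receptor, was lower by 1.22.

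Cytokine receptor genes differed in both directions. Il7r, the IL-7 receptor of resting and memory cells, stood at 0.649 against 2.56 and at 0.633 against 2.74, and was lower in P14-like cells by 1.85 (SE 0.20, limma adjusted p = 8.09e-19). Its levels hardly differed between mice on either side. Il2rb, shared by the IL-2 and IL-15 receptors, was higher by 1.02 and lost its call without AG 1, at 0.57. Il10ra, a subunit of the IL-10 receptor, was higher by 1.62 (SE 0.25). Of 20 cytokine receptor genes tested, 3 were higher and 4 lower, with a median of -0.26. Thinned to 1500 UMIs, a UMI of Tcf7 or Il7r was found in 12.2% and 8.78% of P14-like cells, against 37.8% and 41.9% of host cells. Keratin-high cells without Cd3 had a Tcf7 UMI in 0.743% and 1.26% and an Il7r UMI in 0.212% and 3.34%.

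Genes of residency and of tissue exit did not move as blocks. Of 23 residency genes tested, 4 were higher and 3 lower, with a median of 0.02, and of 14 circulation and memory genes 2 were higher and 4 lower, with a median of -0.28. Itgae, the integrin chain that holds cells in epithelium, stood at 1.59 against 3.13 and at 0.368 against 1.83. P14-like cells were lower in each mouse, by 1.45 (SE 0.19, limma adjusted p = 1.05e-11), and the 2 sides did not overlap. Itgb7, its partner chain, was lower by 1.42 (SE 0.18). Cd69, which blocks exit from tissue and also marks recent activation, stood at 2.36 against 4.64 and at 1.81 against 4.52, lower by 1.06 (SE 0.16). Qpct, a glutaminyl cyclase, was lower by 1.94.

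The 4 residency genes on the P14-like side were Cxcr6, Bhlhe40, Itgav and Litaf. Cxcr6, the receptor for CXCL16, stood at 12.4 against 8.60 and at 8.13 against 5.23, a difference of 0.62 (SE 0.13, limma adjusted p = 4.98e-05). The host level of AG 1 was above the P14-like level of AG 2, so the sides overlapped between mice. Itga4, an integrin chain used to enter inflamed tissue, was higher by 1.85 (SE 0.26). Klf2, which drives exit genes, had a difference of -0.89 that did not pass (adjusted p = 0.0589), and S1pr1, its exit receptor target, had too few UMIs to be tested. Of the 7 chemokine receptors tested, 4 were higher, among them Cxcr6, Ccr2 and Cx3cr1, and 2 lower, Cxcr3 and Ccr8. Cxcr3, the receptor for the interferon-induced ligands CXCL9 and CXCL10, stood at 0.867 against 2.43 and at 0.748 against 2.00, lower by 1.31 (SE 0.19). Ccr2, a receptor for monocyte-attracting chemokines, was higher by 1.29 and lost its call without AG 1, at 0.93.

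**Figure D4:**
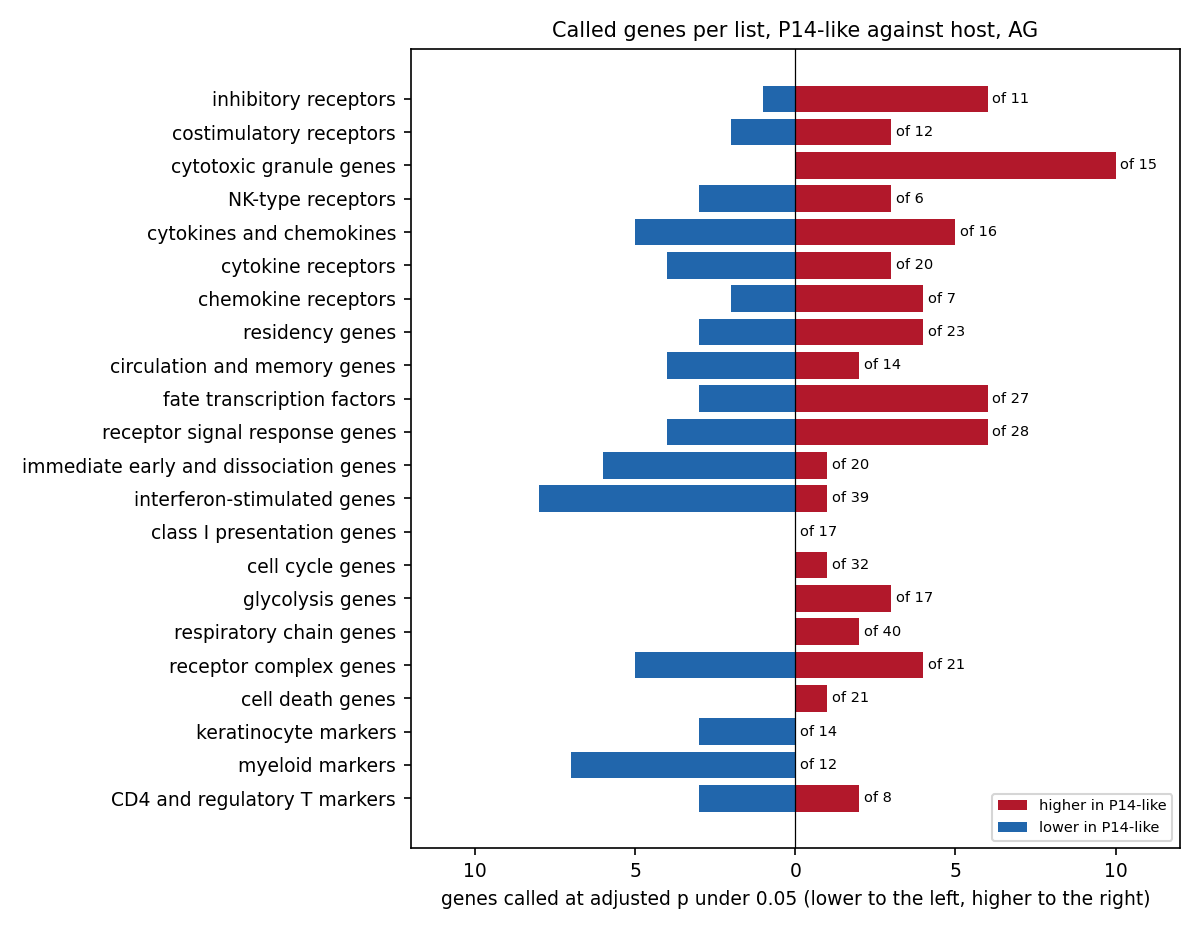
Number of genes called in each list with more than 5 genes tested, higher in P14-like cells to the right in red and lower to the left in blue, with the number tested at the end of each bar. Granule genes have 10 of 15 on the right and none on the left, and interferon-stimulated genes have 1 on the right and 8 of 39 on the left. The 4 receptor complex genes on the right are Trdc, Trac, Trbc1 and Trbc2, of which Trbc1 and Trbc2 share transcripts with the beta segments of the rule.

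Genes that respond to antigen receptor signals were divided, with 6 of 28 tested higher and 4 lower and a median of 0.25. Nr4a2, an orphan nuclear receptor, stood at 2.94 against 0.490 and at 2.51 against 1.25, higher by 1.70 (SE 0.19). Tnfrsf9, the costimulatory receptor 4-1BB, stood at 5.28 against 0.806 and at 2.23 against 1.41, higher by 1.64 (SE 0.18). The gap of Tnfrsf9 was much wider in AG 1 than in AG 2. Cblb, a ubiquitin ligase that dampens signalling, was higher by 1.68 (SE 0.25). Nr4a1 did not pass (-0.23, limma adjusted p = 0.597), with levels of 3.0 against 3.11 and 1.02 against 1.49 that varied more between mice than between sides. Rgs16, a regulator of chemokine receptor signalling, was higher by 2.93 and Plac8 by 3.14 (SE 0.21 and 0.20). Cd5, a receptor that tunes signalling, was lower by 1.01, and by 0.89 and not called without AG 1.

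Costimulatory receptors had 3 of 12 tested higher, namely Tnfrsf9, Icos and Cd27, and 2 lower, Cd226 and Cd40lg. Immediate early genes can also be induced by cell dissociation. Of 20 tested, 6 were lower and 1 was higher, with a median of -0.36. Fos was at 1.44 against 3.06 and at 1.11 against 2.11, lower by 0.91, and by 0.79 and not called without AG 1. Jund was the 1 higher gene, by 0.72. Of 39 interferon-stimulated genes tested, 8 were lower and 1 was higher, with a median of -0.34. Ly6e, a surface protein of activated lymphocytes, stood at 9.64 against 20.4 and at 6.13 against 15.4, and was lower by 1.15 (SE 0.12). Ifit3, a partner of the RNA-binding protein IFIT1, stood at 0.104 against 0.466 and at 0.273 against 1.49, lower by 1.75, and lost its call without AG 2, at -1.46. Isg15 was lower by 0.64 and lost its call in the fit shared with AG_CPI. None of the 17 genes of class I presentation was called by limma, and 5 had an unadjusted p under 0.05, 2 higher and 3 lower.

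Genes of growth, metabolism and cell death are read beside the 6.19% called among all genes. Of 32 cell cycle genes tested, 1 was called by limma and 6 were higher at an unadjusted p under 0.05. The called gene was Cenpa, a histone variant of the centromere, higher by 1.30. Mki67 stood at 0.759 against 0.614 and at 1.36 against 1.26, and did not pass (0.22, limma adjusted p = 0.729). Matching on depth bears on this: over all members, unmatched, Mki67 was called higher, by 0.66, and a UMI of Mki67, Top2a or Birc5 was found in 28.2% of P14-like and 14.2% of host cells of AG 1 and in 48.7% and 28.4% of AG 2. Of 17 glycolysis genes 3 were called higher, Slc2a3, Gapdh and Pgk1, and 7 were higher and 1 lower at an unadjusted p under 0.05, with a median of 0.22. Of 40 respiratory chain genes 2 were called higher, Cox5b and Atp5l, and 8 were higher and none lower at an unadjusted p under 0.05. Their median was 0.16, beside 0.02 over all genes, and 39 of the 40 fitted differences were above 0. The glucose transporter Slc2a3 was higher by 1.34 and lost its call without AG 1, at 0.96. Of 21 genes of cell death, only the death inducer Bcl2l11 was called, higher by 1.22, and at 0.77 and not called without AG 1.

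The constant genes of the receptor chains are given as a description, since Trbc1 and Trbc2 share transcripts with the beta segments that set the sides and Trac encodes the alpha chain that pairs with them. Trac averaged 9.96 against 3.55 in AG 1 and 8.79 against 3.59 in AG 2, Trbc2 5.74 against 1.67 and 4.65 against 2.58, and Trbc1 2.76 against 1.22 and 2.38 against 1.34. All 3 were higher in P14-like cells of both mice. Trdc, the constant gene of the delta chain, lies at chr14:54142851-54148868, between Trav14-1 and Trac, and is normally a gene of gamma-delta T cells. It averaged 2.96 against 0.0836 and 3.42 against 0.282, a difference of 3.67 (SE 0.23, limma adjusted p = 4.36e-55). A Trdc UMI was found in 207 of 489 P14-like cells of AG 1 and 192 of 487 of AG 2, and in 4 of 388 and 8 of 148 host cells. Keratin-high cells without Cd3 had one in 1 of 942 and 37 of 1348 cells (2.74%).

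Of the P14-like cells with a Trdc UMI, 190 in AG 1 and 152 in AG 2 also had a Trav14 UMI. Trdv2-2, a delta variable segment of the same locus, was higher by 2.91 (SE 0.32). Of the 9 other gamma-delta markers with a column, 2 of the 3 tested were called higher, Trdv2-2 and Trgv2, and the 9 summed to 2.72 in P14-like and 0.551 in host cells of AG 1, and 1.83 and 1.03 in AG 2. Blk, Il17a and Il23r had no UMI in P14-like cells of either mouse. In host cells Blk was at 0 in both mice, Il17a in AG 1 and Il23r in AG 2. The part of gamma-delta cells in the side differences was not tested. With all cells that had a Trdc UMI left out, 131 of the 209 higher and 107 of the 175 lower genes were called again. Trat1, which encodes an adaptor of the receptor complex, had the largest difference on the host side among the named genes. It averaged 0.158 against 2.72 and 0.108 against 1.67, lower by 3.23 (SE 0.25, limma adjusted p = 4.9e-35). Other genes of large difference on the host side were Gpr18, a receptor of intraepithelial lymphocytes, lower by 1.90, Tesc, lower by 1.75, and St6gal1, a sialyltransferase, lower by 2.19. On the P14-like side, Prr5l was higher by 2.38. Of the other receptor complex genes, Trat1, Cd5, Thy1, Skap1 and Sit1 were lower.

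Markers of other cell types were not spread evenly over the sides. The 20 myeloid markers summed to 2.88 UMIs per 10000 in P14-like and 22.2 in host cells of AG 1, and to 17.2 and 32.0 in AG 2, and 10.2 and 10.8 in host cells of NO_AG. Of the 12 tested, 7 were lower in P14-like cells and none higher, with a median of -0.96. The widest gaps were in class II genes: H2-Ab1 stood at 0.187 against 3.27 and at 2.20 against 4.76, Cd74 at 1.04 against 10.4 and at 5.31 against 11.5. Differences were -2.28 for H2-Ab1, -2.0 for H2-Eb1, -1.91 for H2-Aa and -2.11 for Cd74. All of them were wider in AG 1 than in AG 2, with H2-Eb1 at -2.84 and -1.16 and H2-Aa at -3.01 and -0.82. The defining macrophage marker Adgre1 was at 0 in all 4 AG profiles, and Mrc1 in all but the host cells of AG 2, while Csf1r, Fcgr1 and Cd14 were above 0 in host cells of both mice and at 0 in P14-like cells of AG 1. C1qb was at 0.0892 against 0.387 and at 1.02 against 1.65, lower by 0.97, a call lost in the fit shared with AG_CPI. When cells with a UMI of any of 8 myeloid genes were left out, 157 of the 209 higher and 118 of the 175 lower genes were called again.

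The 19 keratinocyte markers summed to 5.59 in P14-like and 15.3 in host cells of AG 1, and to 8.11 and 8.33 in AG 2. Krt10 stood at 0.348 against 2.16 in AG 1 and at 0.158 against 0.190 in AG 2, so its difference of -1.22 rests on AG 1, and it was lost in the shared fit. Hbb-bs, a red cell gene, was at 4.89 in host cells of AG 1 and had no UMI on either side of AG 2. With cells that had a UMI of any of 6 keratins left out, 111 of the 209 and 94 of the 175 genes were called again. Markers of NK and innate lymphoid cells summed to between 1.55 and 2.20 in the 4 profiles, of B cells to between 0.297 and 0.568, and of fibroblasts and endothelium to between 0.128 and 0.223, and limma called none of their 5 tested genes, of which 2 were higher at an unadjusted p under 0.05. Markers of CD4 and regulatory T cells summed to 17.0 and 17.9 in AG 1 and to 9.53 and 12.9 in AG 2, with 2 of 8 higher and 3 lower. The part of these other cells in the side differences was not tested.

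Host cells of the NO_AG mice, 90 and 311 cells, give the level without antigen, though their depth was not matched. Among the 209 genes higher in P14-like cells, both P14-like profiles lay above both NO_AG host profiles for 185, which their call on a high P14-like level favours. Both AG host profiles lay above both NO_AG ones for 50 of the 209, and below both for 49. Pdcd1 stood at 0.133 and 0.0891 in NO_AG host cells, 0.149 and 0.704 in AG host cells, and 3.25 and 2.25 in P14-like cells. For Tcf7 the NO_AG levels of 1.09 and 1.27 were near the AG host levels of 1.29 and 1.54. Among the 175 lower genes, both P14-like profiles lay below both NO_AG profiles for 128, which their call on a low P14-like level favours. For none of these counts against NO_AG was the share over all genes tested computed. For Klrd1 the AG host levels of 4.43 and 6.56 exceeded the NO_AG levels of 2.64 and 2.97.

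The same comparison was made in the AG_CPI mice, which the rule did not use. They held 669 P14-like and 148 host cells in AG_CPI 1, of which 148 pairs were matched, and 833 and 206 in AG_CPI 2, with 205 pairs. In these mice 70 of 6032 genes were higher (1.16%) and 39 lower (0.647%) in P14-like cells, and 585 had an unadjusted p under 0.05. The counts became 26 and 10 without Scrublet doublets, and 26 and 12 in the fit shared with AG. Of the 209 genes higher in AG, 202 were tested in AG_CPI, where 17 were called higher and 18 lower, and of the 175 lower genes 152 were tested, with 4 called lower and 17 higher. The change of the side difference between AG_CPI and AG was tested directly: 190 of 6827 genes passed (2.78%), among them 87 of the 209 and 66 of the 175. These genes were called on the AG difference that the test subtracts, which favours a change against its direction.

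**Figure D5:**
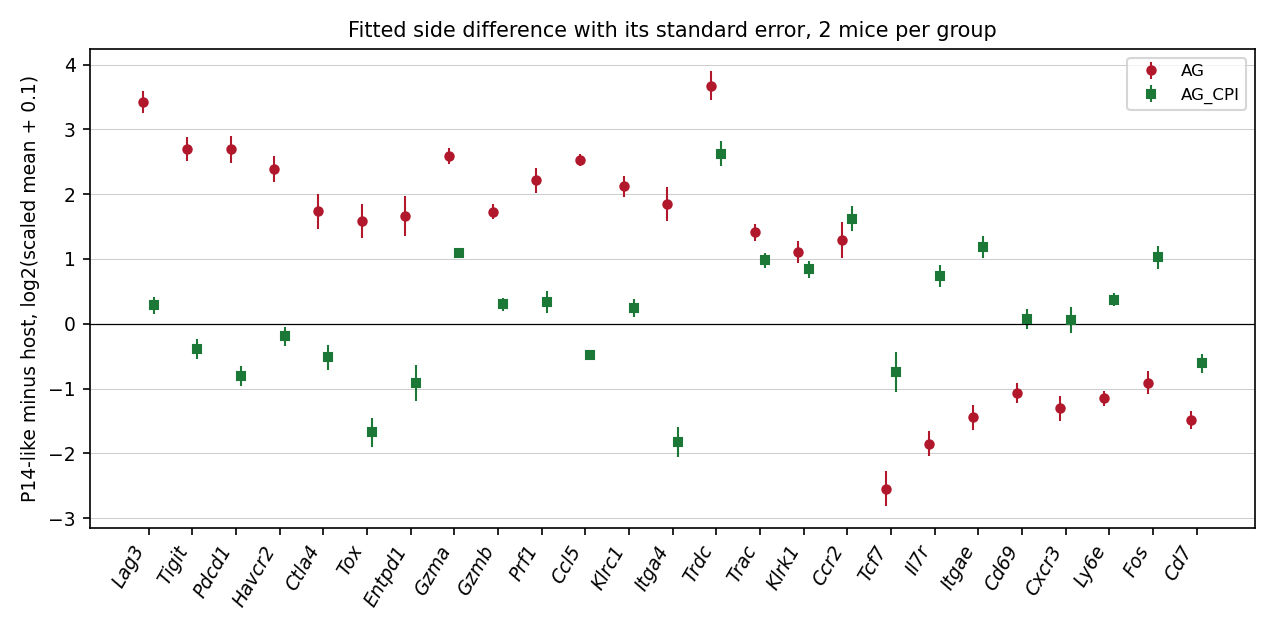
Fitted P14-like minus host difference with its standard error (2 mice per group), on the scale of log2(scaled mean UMIs per 10000 + 0.1), in AG (red circles) and AG_CPI (green squares). The differences of Lag3, Tigit and Pdcd1, between 2.69 and 3.43 in AG, lie between -0.81 and 0.28 in AG_CPI, while Trdc, Trac, Klrk1 and Ccr2 stay above 0 in both.

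The side difference of 7 inhibitory receptor genes changed between AG and AG_CPI, among them Pdcd1, Lag3, Havcr2 and Tigit. Pdcd1 stood at 1.91 in P14-like and 3.61 in host cells of AG_CPI 1, and at 2.11 and 3.62 in AG_CPI 2, a difference of -0.81 (SE 0.15, limma adjusted p = 1.15e-05). Host cells were the higher side in both mice, against the P14-like side in AG, and the change was -3.51 (SE 0.43, adjusted p = 6.23e-05). Lag3 was at 3.97 against 3.71 and at 4.87 against 3.53, a difference of 0.28 that did not pass. Tox was at 0.272 against 1.31 and at 0.429 against 1.35, lower in P14-like cells by 1.68. Of 12 inhibitory receptor genes tested, none was called higher there and 2 were lower, Pdcd1 and Cd200r1, with a median of -0.29.

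Gzma kept its direction in AG_CPI, at 90.4 against 43.6 and 76.7 against 35.5, a difference of 1.09 (limma adjusted p = 2e-42). All 4 AG_CPI profiles lay above the 4 AG profiles. Ccl5 was at 69.6 against 123 and at 100.3 against 112, lower in P14-like cells by 0.48. Il7r and Itgae changed sides: P14-like cells were higher by 0.74 and 1.18, with Itgae at 2.29 against 1.06 and at 3.35 against 1.30. Trdc, Trac, Klrk1 and Ccr2 were higher in P14-like cells of both groups, and Cd7 and Cd5 lower. In the 4 granule genes Gzma, Gzmb, Gzmk and Prf1 the side difference was smaller in AG_CPI than in AG by 1.44 to 1.91.

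Several measures of the AG_CPI sides differ from those of AG and bear on this comparison. A Trav14 UMI was found in 39 of 83 host cells with a Trav UMI in AG_CPI 1 and in 38 of 125 in AG_CPI 2, against 50 of 233 and 15 of 71 in AG. In AG_CPI 1 a Xist UMI was found in 68.3% of P14-like and 12.2% of host cells, and a UMI of the Y-linked Ddx3y in 6 of 669 and 13 of 148 cells. In AG_CPI 2 the Xist shares were 74.8% and 79.6%, and no Ddx3y UMI was found on either side. With P14-like cells limited to those with a Trav14 UMI and host cells to those without one, 63 genes were higher and 35 lower in AG_CPI, and 203 and 155 in AG. The part of the sex-linked difference in the AG_CPI result was not tested.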

How the data were processed

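Single-cell RNA libraries of mouse skin were deposited per mouse. Per the submitters' processing notes, Cell Ranger 3.1 and mm10 were used. The values deposited by the authors are log10 of 1 plus UMIs per 10000 UMIs of a cell, and inverting them gave whole UMIs for 100.0% of the values checked, against 65.7% to 68.3% under a natural log. The cells deposited have at least 1501 UMIs in 5 libraries and 1503 in the other.

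Cells of the 2 sides were paired within a mouse by an optimal assignment on log10 UMIs, and pairs at or beyond 0.05 apart were dropped; this truncation was settled from depth alone, since the plain assignment was not unique. Mean UMIs per 10000 per profile were scaled by a trimmed mean of log ratios, 0.1 was added, and log2 values were fitted with limma 3.58.1 (R 4.3.3) with the mouse as a block, since both sides come from the same mouse. Genes needed 10 UMIs and a mean of 0.1 in 2 profiles, and calls an adjusted p under 0.05. P-values speak of these mice only: with 1 residual degree of freedom the AG fit takes its spread from the trend across genes, and a gene's own spread between the mice does not enter. In simulated AG data, 6456 genes with 200 changed, 33.3% of 2-fold and 79% of 4-fold changes were recovered, and 2.1% of calls were false. Besides counting error, the simulation gave every gene the same spread between side and mouse, 0.1 on the log2 scale. Genes that vary more between mice were not simulated, so the 2.1% does not carry over to the measured calls. Doublets were marked with Scrublet (scanpy 1.11.5) and left out as an alternative. Wilson intervals are at 95%.

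The members and the 26 gene lists were chosen with earlier results of these data known. Named genes were a fixed set, the 12 largest called differences in each direction with the same sign in both mice and a mean of at least 0.5 on the higher side (variable segments, ribosomal, mitochondrial, sex-linked and unnamed genes left out), and called list members; the 5 genes with no common sign were named after their values were seen. Positions and segment sequences are from GENCODE on GRCm38. Alternatives changed the side rules, matching, filters, scaling, pseudocount, moderation and block, and left out each mouse. The result of 1 listed gene is not reported here.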

Additional observations from a re-analysis of the deposited data

Results flagged for a closer look

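The side difference, P14-like minus host, changed between AG and AG_CPI in 49 of the named genes, by limma's test of the change itself with an adjusted p under 0.05 over 6827 genes. Values are the AG_CPI difference minus the AG difference on the log2 scale, over 2 mice per group, and a negative value means that P14-like cells stood less high, or lower, relative to host cells in AG_CPI.

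Among inhibitory receptors and Tox the change was -3.51 for Pdcd1, -3.15 for Lag3, -2.59 for Havcr2, -3.09 for Tigit, -2.26 for Ctla4, -2.58 for Entpd1 and -3.27 for Tox. Among granule and killer-cell genes it was -1.5 for Gzma, -1.44 for Gzmb, -1.91 for Gzmk, -3.39 for Gzmf, -1.88 for Prf1, -0.84 for Nkg7, -0.81 for Srgn, -1.4 for Klrd1 and -1.89 for Klrc1. Gzmf stood at 0.0827 against 1.03 in AG_CPI 1 but at 0.105 against 0.0629 in AG_CPI 2, so the 2 AG_CPI mice had opposite directions. Among chemokines and signalling genes that were higher in P14-like cells of AG it was -2.57 for Ccl3, -1.98 for Ccl4, -3.01 for Ccl5, -2.04 for Tnfrsf9, -1.53 for Nr4a2, -1.63 for Cblb, -2.82 for Rgs16, -3.17 for Plac8 and -2.39 for Prr5l. Among receptors, adhesion genes and others of that direction it was -0.95 for Il2rb, -1.85 for Il10ra, -3.68 for Itga4, -1.58 for Itgav, -1.26 for Bhlhe40 and -1.63 for Trbc1. The value of Trbc1 is a description only, since it shares transcripts with the beta segments that set the sides.

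Genes lower in P14-like cells of AG had changes above 0, a direction that their call in AG favours. Among memory and adhesion genes the change was 1.8 for Tcf7, 2.58 for Il7r, 2.62 for Itgae, 1.51 for Itgb7, 1.13 for Cd69, 1.36 for Cxcr3, 2.44 for Qpct and 1.67 for Rora. Among cytokines and other named genes it was 2.48 for Il2, 2.09 for Tnf, 2.26 for Trat1, 2.35 for Tesc, 1.92 for Fos and 1.51 for Ly6e. Among class II genes and Fcer1g, which myeloid cells also express, it was 2.36 for H2-Ab1, 1.97 for H2-Aa, 1.78 for Cd74 and 1.71 for Fcer1g. Summed myeloid markers moved too: they stood at 2.88 and 17.2 UMIs per 10000 in P14-like against 22.2 and 32.0 in host cells of AG, and at 19.4 and 24.2 against 34.5 and 14.4 in AG_CPI. Their part in these changes was not tested.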

How the results depend on the processing

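Across 81 named genes and their alternatives, 1556 of 1675 values kept direction and side of the threshold, 102 lost the call, 7 gained it and 10 changed sign; 33 genes did the first under every alternative run. The AG counts of 209 higher and 175 lower became 41 and 16 without pairing the sides by mouse (no replicate block), 56 and 40 when cells were thinned to 1500 UMIs, and 118 and 105 without cells with a UMI of 6 keratins. All cells unmatched gave 462 higher, and leaving out cells with a Trdc UMI gave 114 lower. Leaving out a mouse, with the spread taken from the shared fit and the lone mouse assumed to vary like the AG_CPI mice, gave 113 to 168 higher and 101 to 111 lower. The AG_CPI counts of 70 higher and 39 lower became 26 and 10 without Scrublet doublets, 145 and 62 unmatched, 33 and 14 with a mean of 0.5 required, 25 and 10 without P14-like cells with another Trbv UMI, 19 and 10 without the block, 26 and 12 in the shared fit, and 13 and 7 thinned. The strict cell filter gave 46 higher, weighting by deciles of UMIs 130 higher, and a pseudocount of 0.5 24 lower. Leaving out an AG_CPI mouse gave 34 to 38 higher and 15 to 27 lower. The 190 genes whose side difference changed became 116 with a mean of 0.5, 64 with no filter, 67 without the block and 73 thinned. Thinning discards UMIs and a higher minimum tests fewer genes; for the others the cause was not tested. With robust moderation Pdcd1, Lag3, Gzma, Trav14-1, Plac8, Rgs16, Ccl3, Tnfrsf9, H2-Ab1, H2-Aa and Cd74 lost their call at the same difference.

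Xcl1 changed sign under 9 alternatives: -0.11 without doublets, -0.73 with the Trav14 rule, -0.012 with 2 Trbv13-3 UMIs, -0.023 with the strict filter, -0.51 without cycling cells, -0.028 with the deposited scaling, -0.31 without myeloid marker cells, -0.26 without other Trbv UMIs and -1.32 without AG 1, while without AG 2 it was 1.36. Mki67 was at -0.022 without myeloid marker cells. The Trav14, keratin and myeloid alternatives were chosen after seeing the data.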
